A study of Sus scrofa with 6 samples.

Results

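The genes described here encode the enzymes and binding proteins that shorten, lengthen, protect or degrade stored messenger RNA in the egg. They were chosen by symbol alone, as every probe set whose single gene symbol in the array's annotation belongs to the CNOT, PAN, PABP, PARN, EXOSC, XRN, DCP, LSM, UPF, PUM, CPEB, CPSF, CSTF, PAPOL, ELAVL, BTG, TOB, ZFP36, YTHDF or YBX families or is DDX6. This gave 48 of the 6765 genes with a single symbol, read by 85 of the 23999 probe sets that are not array controls. The rule uses no measured value, but it was set with earlier results of these data known.

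RNA of pig oocytes at metaphase II, the stage at which the mature egg awaits fertilization, was hybridized to 6 Affymetrix porcine arrays. The adult group held 3 arrays of oocytes from sows, which the labels call developmentally competent, and the prepubertal group held 3 arrays of oocytes from gilts, called incompetent. In both groups oocytes were aspirated from follicles of 2 to 6 mm, matured in culture for 42 to 44 h, freed of cumulus cells with hyaluronidase and vortexing, and inspected for the first polar body. The labels name the arrays of a group as biological replicates without giving the number of oocytes or animals behind each, so a p-value here reflects only how these samples vary, which may in part be technical. Poly(A) RNA was captured on beads and amplified in 2 cycles in both groups. For that reason a transcript with a shorter tail and a transcript present in fewer copies cannot be told apart in these values.

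A growing oocyte stores messenger RNA and then stops transcribing, so later changes in its RNA come from the handling of that store. During meiotic maturation the poly(A) tails of some stored messages are lengthened and those messages are translated, while others lose their tails through the CCR4-NOT and PAN2-PAN3 deadenylases and are then decapped and degraded. Proteins bound to the 3′ untranslated region, such as CPEB, Pumilio, ELAVL and ZFP36 proteins, select which message takes which course.

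Signals are given after quantile normalization, which gives all arrays the same distribution of values, because the deposited arrays were not at one level. The 2% trimmed mean signal as deposited was 121 to 160 in the adult and 105 to 131 in the prepubertal arrays. As deposited, the median difference of all tested probe sets, prepubertal minus adult, was −0.20 on the log2 scale, against −0.01 after normalization. Prepubertal replicate 1 deviated most from its group mean (root mean square 0.29 on the log2 scale, against 0.22 to 0.27 for the other arrays), and without it, 195 probe sets passed the test in place of 14, and without any single other array 0 to 6 passed. Oocyte markers had 8 of 10 probe sets tested, and their summed normalized signal was 19062 to 22327 in the adult and 19794 to 24151 in the prepubertal arrays. Most of that sum came from WEE2 (9166 to 13342 over all arrays) and H1FOO (4137 to 5145). The groups did not overlap for BMP15, ZP2 and H1FOO (log2 differences 0.42, 0.35 and 0.18), all higher in prepubertal arrays. That is 37.5% of the tested oocyte markers, against 7.54% of all tested probe sets, and none passed. For cumulus and granulosa markers 12 of 40 probe sets were bright enough to be tested, and their list summed to 779 to 820 and 770 to 820, with the defining markers CYP19A1, FSHR, STAR, PTGS2 and TNFAIP6 all below the brightness filter. Tested granulosa markers were FST (112 to 123 in the adult and 92.6 to 107 in the prepubertal arrays), INHBA (110 to 123 and 89.9 to 123), SERPINE2, VCAN, INHA, AMHR2, NR5A1, HSD3B1, KITLG and LHCGR. None of these passed, and the groups did not overlap for FST, which was lower, and LHCGR, which was higher in prepubertal arrays. Blood, immune and stromal markers had 7 of 17 probe sets tested and summed to 502 to 619 in the adult and 417 to 638 in the prepubertal arrays. Among them COL3A1 was lower (log2 difference −0.75) and a COL1A2 probe set higher (0.18) in prepubertal arrays without overlap, and none passed. The part of other cells in the differences below was not tested, and in bulk samples fewer cells of a type and less RNA per cell cannot be told apart.

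Prepubertal and adult oocytes did not differ in any of the decay and polyadenylation genes by a margin that passed the test. Of the 85 probe sets, 68 of 45 genes were bright enough to be tested, and 0 passed an adjusted p of 0.05 in the limma fit over all 12000 tested probe sets, where 0.117% passed. The lowest adjusted p among them was 0.141, for the deadenylase gene CNOT7. At an unadjusted p of 0.05, 3 probe sets were higher in prepubertal oocytes, against 5.05% of all tested probe sets (4.41% of the 68), and 5 were lower, against 5.81% of all (7.35% of the 68). These shares lie near the background and are no result about the genes as a group.

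The size of the differences was also like that of the other genes. Their log2 differences, computed on log2 of signal plus 16 and so understating folds of dim probe sets, ranged from −0.67 to 0.54, with a median of −0.04. Their median absolute difference was 0.16, against 0.18 for all tested probe sets. Of the 68, 32 had a higher value in prepubertal oocytes (47.1%, against 48.9% of all). The 3 prepubertal arrays all lay above the 3 adult arrays for 5 probe sets (7.35%, against 7.54% of all) and all below them for 6 (8.82%, against 8.77% of all).

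The 95% intervals say how large a difference could have gone unseen. Their median half-width was 0.44 on the log2 scale, from 0.19 to 0.76. For 61 of the 68 probe sets the interval lay within a 2-fold difference in either direction, and for 26 within 1.5-fold. Only 4 estimates were beyond 1.5-fold and 0 beyond 2-fold. These folds are of signal plus 16, so for dim probe sets the bounds depend on that constant. With a constant of 1 the differences ran from −1.24 to 1.14, beyond 2-fold in either direction. Spread between replicates was a median SD of 0.24 for these probe sets and 0.24 for all tested ones.

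**Figure D1:**
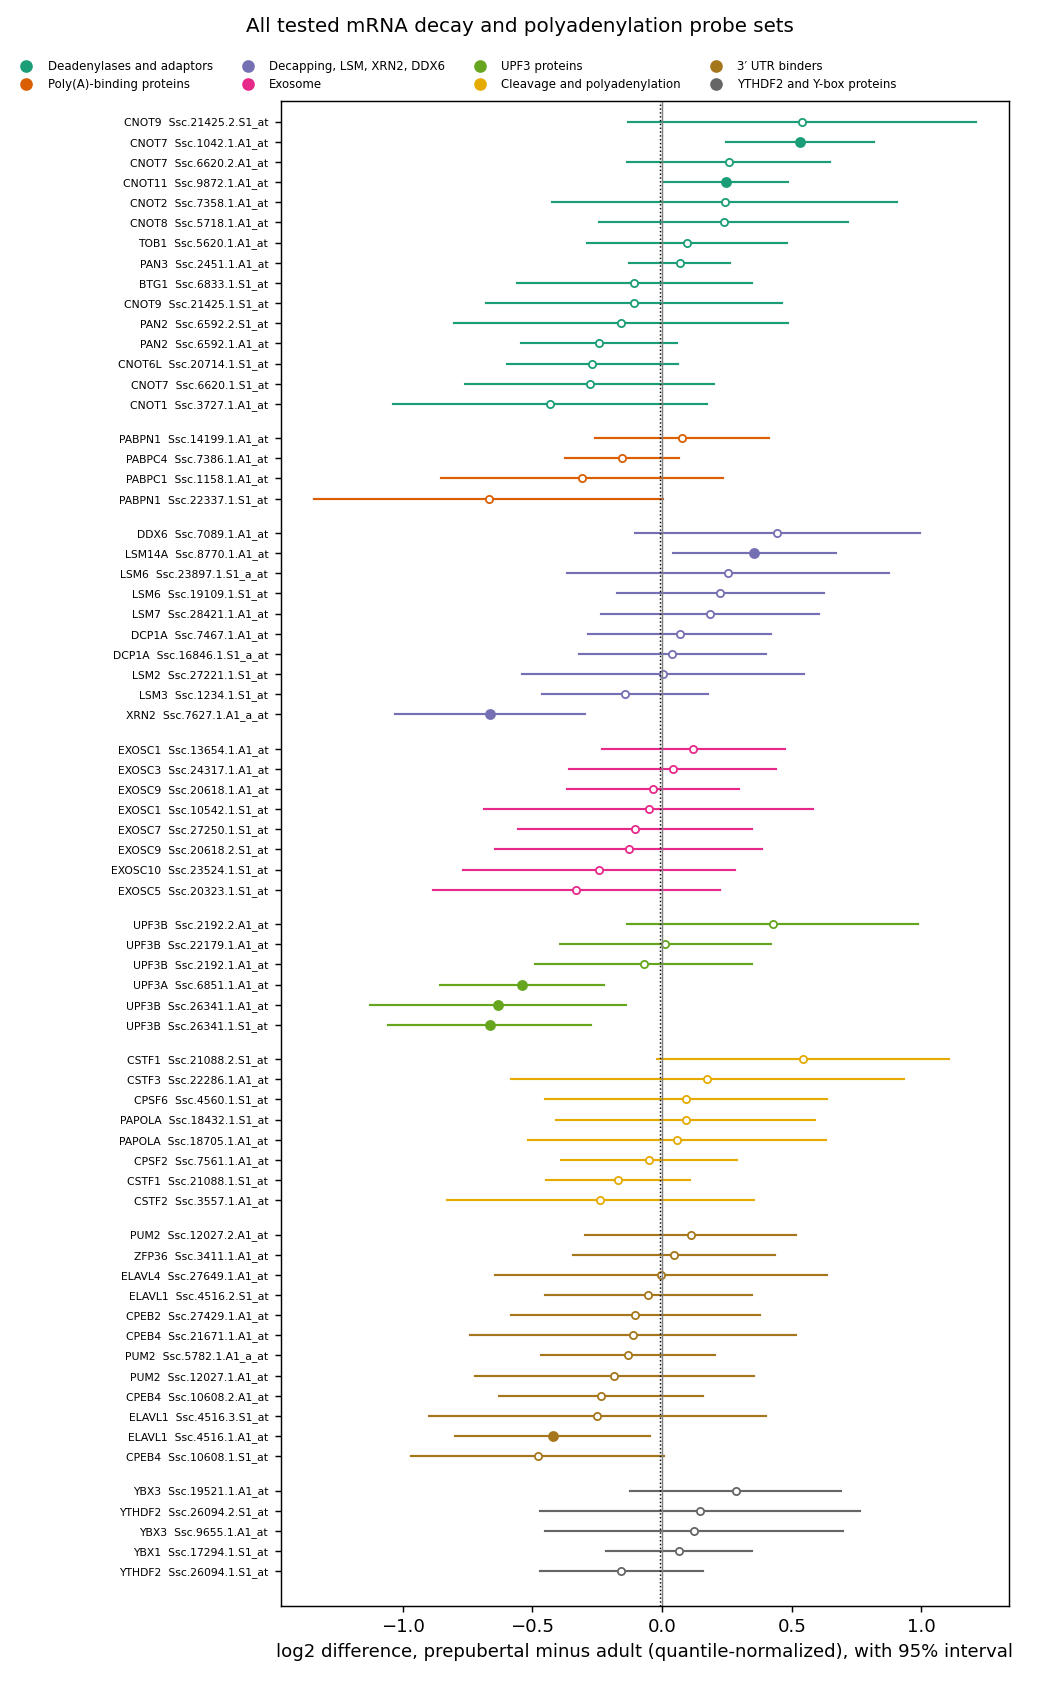
The log2 difference of normalized signal, prepubertal minus adult, for the 68 tested probe sets grouped by role, with 95% limma intervals; filled points had an unadjusted p under 0.05, and the dotted line is the median of all tested probe sets. Estimates run from −0.67 to 0.54, and 0 of the 68 passed after adjustment.

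Among the deadenylases, the enzymes that remove the tail, CNOT7 gave the lowest p of all the genes. CNOT7 is a catalytic subunit of the CCR4-NOT complex, the main cytoplasmic deadenylase. One of its probe sets read 679, 797 and 910 in the adult arrays, in the order of replicates 1, 2 and 3 used for all values below, and 1155, 1176 and 1114 in the prepubertal arrays. All prepubertal arrays were above all adult arrays. The log2 difference was 0.53 ± 0.13 (SE), a 1.44-fold higher value, with a limma adjusted p of 0.141. On the signals as deposited the difference was 0.24 and the adjusted p 0.591.

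The other CNOT7 probe sets did not share that pattern. A second one read 1034, 888 and 651 in the adult and 1006, 580 and 564 in the prepubertal arrays, a log2 difference of −0.28 ± 0.22. The third and dimmest read 160, 167 and 141 in the adult and 176, 236 and 161 in the prepubertal arrays, a difference of 0.26 ± 0.18. In both the groups overlapped, with adjusted p-values of 0.678 and 0.633. Within each array, the first CNOT7 probe set over the second gave log2 ratios of −0.59, −0.15 and 0.47 in the adult and 0.20, 1.00 and 0.96 in the prepubertal arrays; this pair was picked for its difference, so no test is given, and the ranges overlap. The annotation names all of these probe sets CNOT7 and the files do not say which part of the transcript each one reads.

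CNOT11, a subunit that docks on the scaffold CNOT1 and has no catalytic activity, read 1853, 1997 and 1880 in the adult and 1991, 2418 and 2422 in the prepubertal arrays. Prepubertal replicate 1 lay among the adult values, so the groups overlapped. The log2 difference was 0.25 ± 0.11, with an adjusted p of 0.449, and on the deposited signals its sign turned, at −0.03. CNOT6L, the other kind of catalytic subunit in the complex, read 564, 460 and 569 against 501, 428 and 387, a difference of −0.27 ± 0.15 with overlapping groups. CNOT1 itself, the scaffold, read 61.3, 71.2 and 80.1 against 23.3, 72.0 and 60.2, so its difference of −0.43 ± 0.28 rested largely on the low value of prepubertal replicate 1.

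PAN2 and PAN3 form the deadenylase that trims long tails first, with PAN2 the nuclease and PAN3 its RNA-binding partner. PAN2 read, on its brighter probe set, 601, 519 and 531 in the adult and 416, 505 and 467 in the prepubertal arrays. Every prepubertal value was below every adult value, with a log2 difference of −0.24 ± 0.14 and an adjusted p of 0.544. The dimmer PAN2 probe set differed by −0.16 ± 0.30 and its groups overlapped. PAN3 read 4097, 3937 and 3837 against 3837, 4386 and 4244, a difference of 0.07 ± 0.09, with the smallest SE among the deadenylase probe sets.

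The remaining deadenylase genes were the catalytic CNOT8, the CCR4-NOT subunits CNOT2 and CNOT9, and the adaptors BTG1 and TOB1, which bring the complex to RNA-bound partners. Their differences lay between −0.11 and 0.54. CNOT9 reached 0.54 on a probe set near the brightness filter, with 22.4, 3.24 and 24.3 in the adult and 27.7, 30.2 and 29.2 in the prepubertal arrays, while its other tested probe set gave −0.11. In all, 15 deadenylase and adaptor probe sets of 11 genes were tested, 8 with a higher and 7 with a lower prepubertal value, with a median of 0.07. The only BTG2 probe set was too dim to test. CPEB1, BTG4, YBX2, PARN and ZFP36L2 were not analysed here.

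The poly(A)-binding proteins coat the tail, protect it and help recruit ribosomes. PABPC4, a cytoplasmic member, read 2932, 2617 and 2695 in the adult and 2683, 2425 and 2299 in the prepubertal arrays. Prepubertal replicate 1 lay within the adult range, and the difference was −0.16 ± 0.10 with an adjusted p of 0.600. PABPC1, the general cytoplasmic protein, differed by −0.31 ± 0.25 with 275, 170 and 204 against 108, 231 and 188. PABPN1, the nuclear member, had the lowest value of all tested decay and polyadenylation probe sets, −0.67 ± 0.31, on a dim probe set, which read 44.3, 32.7 and 19.2 against 23.6, 14.8 and 5.05. Those groups overlapped (adjusted p 0.464), and the brighter PABPN1 probe set gave 0.08 ± 0.15. The sizes of dim probe sets depend on the added constant: this PABPN1 value was −1.24 with a constant of 1 and −0.29 with a constant of 64.

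Once the tail is gone, a message is decapped with the help of DCP1A, the LSM ring, DDX6 and LSM14A, and digested from its 5′ end. XRN2, the mainly nuclear 5′ to 3′ exonuclease known for ending transcription, had the next lowest p after CNOT7. It read 225, 197 and 246 in the adult and 120, 153 and 131 in the prepubertal arrays. The groups were well separated, with the lowest adult value above the highest prepubertal one. The log2 difference was −0.66 ± 0.17, a 1.58-fold lower value, with an adjusted p of 0.159. As deposited it was −0.91 with an adjusted p of 0.0856. Without prepubertal replicate 1 the adjusted p was 0.0301, in a fit where 617 of all tested probe sets passed. XRN2 did not pass on the deposited signals with any other single array left out. With arrays blocked by replicate number, a pairing the labels do not state, it passed there (limma adjusted p 0.0128), among 918 of all tested.

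LSM14A, a protein of the RNA granules in which repressed messages are held, read 398, 426 and 490 in the adult and 499, 616 and 580 in the prepubertal arrays. The groups did not overlap, though the nearest values were 490 and 499. Its difference was 0.36 ± 0.14 (adjusted p 0.396), which shrank to 0.07 on the deposited signals. DDX6, a helicase that represses translation and promotes decapping, was dim at 12.1, 20.5 and 16.7 against 22.3, 34.2 and 28.0, with separate groups and a difference of 0.44 ± 0.25.

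DCP1A, a cofactor of the decapping enzyme, gave 0.04 ± 0.17 and 0.07 ± 0.16 on its tested probe sets. The LSM ring genes LSM2, LSM3, LSM6 and LSM7 ranged from −0.14 to 0.25 with overlapping groups throughout after normalization. Of the 10 tested probe sets in this role, 8 were higher and 2 lower in prepubertal oocytes. On the deposited signals the same count was 4 higher and 6 lower, so the majority turned with the scaling. LSM12 had no probe set bright enough to test.

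The exosome degrades RNA from the 3′ end, and here EXOSC10 is one of its nucleases while EXOSC1, EXOSC3, EXOSC5, EXOSC7 and EXOSC9 belong to its core. All 8 tested exosome probe sets had overlapping groups, where 16.3% of all tested probe sets had separate ones. The differences ran from −0.33 ± 0.25 for EXOSC5 to 0.12 ± 0.16 for EXOSC1, with a median of −0.08. EXOSC5 read 56.9, 59.3 and 39.1 in the adult and 40.5, 53.5 and 22.7 in the prepubertal arrays, and EXOSC10 had a difference of −0.24 ± 0.24. EXOSC9 was among the steadiest at −0.03 ± 0.15.

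UPF3A and UPF3B are adaptors of nonsense-mediated decay, which removes messages with premature stop codons by linking the exon junction complex to the helicase UPF1. UPF3A, on its only probe set, read 2279, 1938 and 1502 in the adult and 1283, 1392 and 1195 in the prepubertal arrays. All prepubertal arrays were lower than all adult arrays, which themselves spread widely. The difference was −0.54 ± 0.15, a 1.45-fold lower value, with an adjusted p of 0.192. As deposited it was −0.82, with an adjusted p of 0.0814, the lowest of all these genes on that scale. The adjusted p was 0.00842 without prepubertal replicate 1, a fit in which 617 of all tested probe sets passed. With any other single array left out, none of these genes passed on the deposited signals (lowest limma adjusted p 0.0981). With arrays blocked by replicate number UPF3A passed there (limma adjusted p 0.00247), among 918 of all tested.

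UPF3B was read by 5 tested probe sets, which gave unlike patterns. One read 163, 151 and 167 in the adult and 116, 79.6 and 92.6 in the prepubertal arrays, a difference of −0.66 ± 0.18 (adjusted p 0.192). Another, whose identifier shares the same stem, read 62.8, 65.0 and 67.2 against 23.7, 38.5 and 49.8, a difference of −0.63 ± 0.23 (adjusted p 0.332). Both were lower in every prepubertal array than in any adult array, with adult values close together. The remaining probe sets differed by −0.07 ± 0.19, 0.01 ± 0.19 and 0.43 ± 0.26, all with overlapping groups.

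Within each array, the UPF3B probe set at −0.66 over the one at −0.07 gave log2 ratios of 0.16, −0.34 and −0.20 in the adult and −0.54, −1.17 and −0.45 in the prepubertal arrays. These ranges do not touch. The pair was picked for its difference, so no test is given. A ratio within an array depends little on the level of the array. Why probe sets named UPF3B gave unlike differences was not tested.

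**Figure D2:**
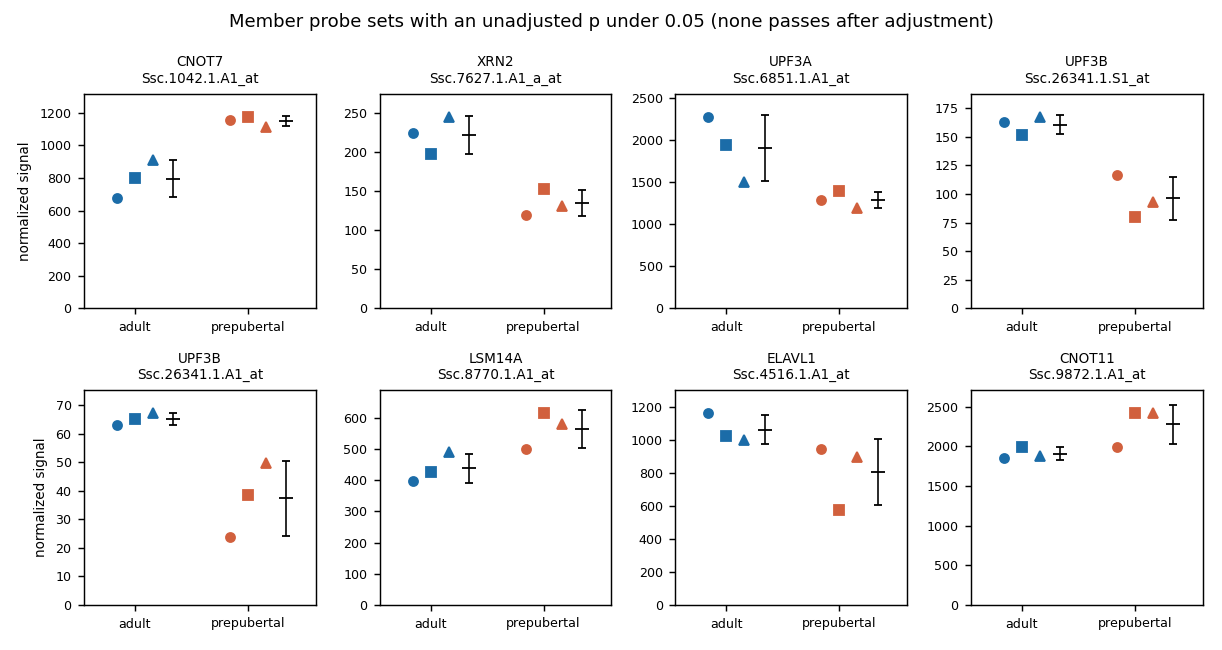
Quantile-normalized signal (linear axis from 0) of the 8 decay and polyadenylation probe sets with an unadjusted p under 0.05, for each array; circles, squares and triangles are replicates 1, 2 and 3, and bars give the mean ± SD (n = 3). The groups are apart in every panel but that of CNOT11, where prepubertal replicate 1 lies at 1991 beside an adult value of 1997.

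**Figure D3:**
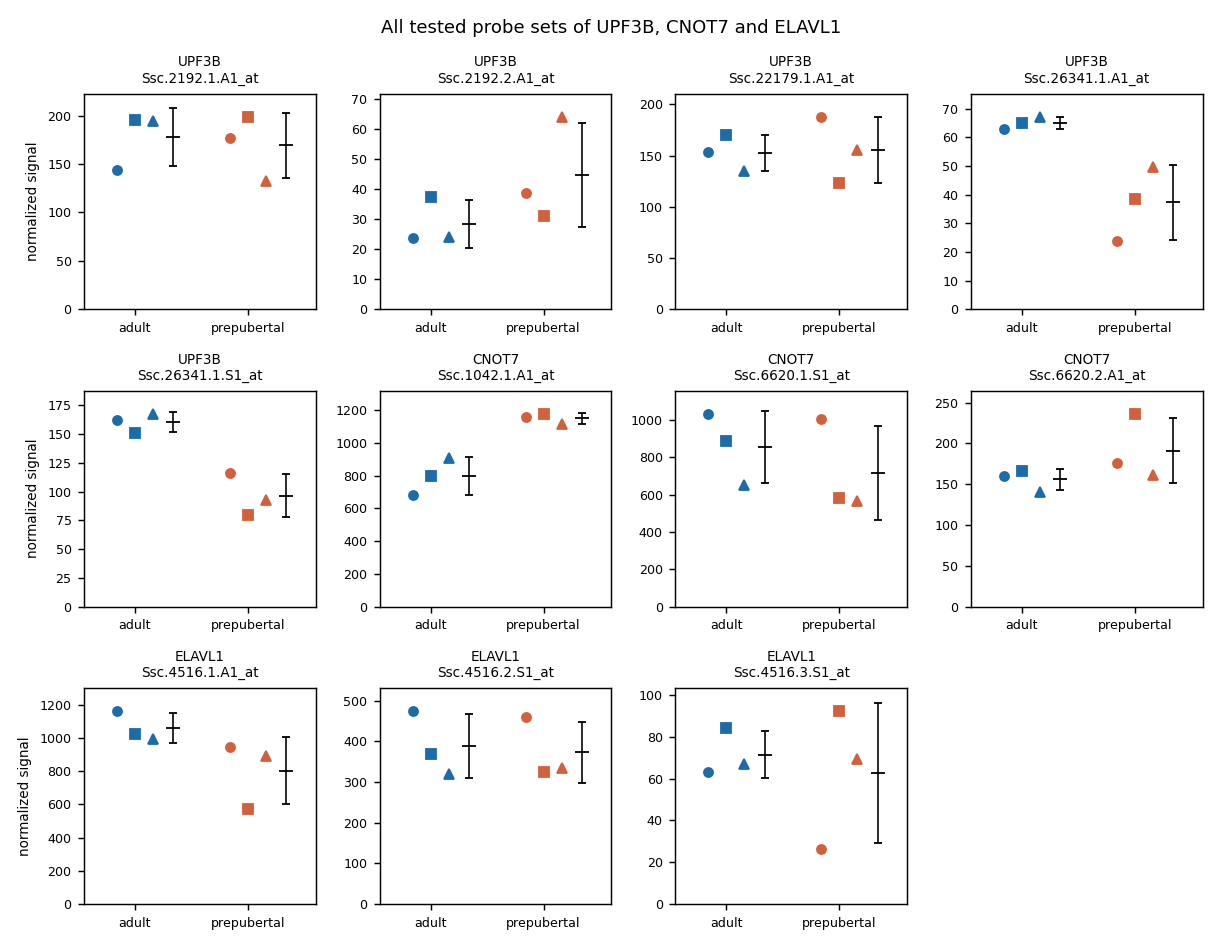
Quantile-normalized signal (linear axis from 0) for every tested probe set of UPF3B, CNOT7 and ELAVL1, with symbols and bars (mean ± SD, n = 3) per group for each of the 6 arrays. For each of these genes some probe sets separate the groups and others, such as the UPF3B probe set at 0.01 on the log2 scale, do not.

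The cleavage and polyadenylation genes cut the new transcript and make its tail in the nucleus, where PAPOLA is the canonical poly(A) polymerase, and CPSF also takes part in lengthening tails in the oocyte cytoplasm. None of their 8 tested probe sets had an unadjusted p under 0.05, where 10.9% of all tested probe sets did. PAPOLA gave 0.09 ± 0.23 and 0.06 ± 0.26, with 166, 110 and 208 in the adult and 172, 132 and 208 in the prepubertal arrays on its brighter probe set. CPSF2, a subunit of the cleavage and polyadenylation specificity factor, gave −0.05 ± 0.16, and CPSF6, of the cleavage factor that helps choose the site, gave 0.09 ± 0.25.

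CSTF1, CSTF2 and CSTF3 form the cleavage stimulation factor. CSTF1 was read in opposite directions by its tested probe sets. One, near background, read 9.15, 17.2 and 13.2 against 27.9, 29.9 and 21.3, with separate groups and a difference of 0.54 ± 0.26. The other, well above the filter, read 697, 749 and 731 against 610, 715 and 609, a difference of −0.17 ± 0.13 with overlap. CSTF2 and CSTF3 gave −0.24 ± 0.27 and 0.17 ± 0.35. CPSF7 was too dim to test.

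The 3′ untranslated region binders decide which stored message is repressed, translated or degraded. ELAVL1, which binds AU-rich elements and protects messages, was the only one of these genes with an unadjusted p under 0.05. Its brightest probe set read 1163, 1025 and 997 in the adult and 945, 575 and 894 in the prepubertal arrays. All prepubertal values were below all adult ones, with prepubertal replicate 2 far the lowest. The difference was −0.42 ± 0.17, a 1.34-fold lower value, with an adjusted p of 0.399. The other ELAVL1 probe sets gave −0.05 ± 0.18 and −0.25 ± 0.30, both with overlap.

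CPEB4, a relative of the factor that drives cytoplasmic polyadenylation during meiosis, had lower prepubertal values on all of its probe sets. One of them read 77.0, 63.8 and 112 against 57.6, 43.4 and 64.4, a difference of −0.48 ± 0.22 (adjusted p 0.469), in which the groups overlapped by less than 1 unit of signal. The other CPEB4 probe sets gave −0.24 ± 0.18 and −0.11 ± 0.29. CPEB2 gave −0.10 ± 0.22, the repressor PUM2 −0.18, −0.13 and 0.11 on its probe sets, and ZFP36, which recruits CCR4-NOT to AU-rich messages, 0.05 ± 0.18. ELAVL4 was dim, at −0.00 ± 0.29. Lower values were found for 10 of the 12 probe sets in this role, with a median of −0.12, but these include 3 probe sets each of ELAVL1, CPEB4 and PUM2, which share a gene.

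YTHDF2 reads N6-methyladenosine and hands marked messages to CCR4-NOT, and the Y-box proteins package stored RNA. YTHDF2 read 402, 498 and 468 in the adult and 375, 445 and 399 in the prepubertal arrays on its brighter probe set, a difference of −0.16 ± 0.15, and the dimmer one gave 0.15 ± 0.28. YBX1 read 1246, 1486 and 1269 against 1191, 1524 and 1486, a difference of 0.07 ± 0.13. YBX3 gave 0.28 ± 0.19 and 0.12 ± 0.26. Groups overlapped for all 5 probe sets after normalization. On the deposited signals 2 of the 5 were lower without overlap, against 17.1% of all tested probe sets. They were YBX1 (−0.23) and the brighter YTHDF2 probe set (−0.44).

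The scaling of the arrays moved most of these genes together. On the deposited signals 0 of the 68 probe sets passed the limma test at an adjusted p of 0.05, where 0.475% of all tested probe sets did. At an unadjusted p of 0.05, 0 were higher (1.14% of all) and 13 were lower (19.1% of the 68, against 13.6% of all). From normalized to deposited signals 18 probe sets turned from a higher to a lower prepubertal value and 0 the other way. Among the 18 were those of YBX1 (−0.23), PAN3 (−0.18), TOB1 (−0.17) and DCP1A (−0.24 and −0.21). Higher values were found for 14 of the 68, or 20.6%, against 25.2% of all. The groups were apart with prepubertal above adult for 2 probe sets (2.94%, against 1.81% of all) and below for 13 (19.1%, against 17.1% of all). The median of the 68 was −0.23, beside −0.20 for all tested probe sets, so relative to that shift the genes stood close to the rest on either scale. Without prepubertal replicate 1, 5 of 67 probe sets passed on deposited signals, among 617 of the 12000 that the brightness filter keeps. That count is not read as a result about the genes as a group. The 5 were of UPF3B, ELAVL1, CNOT7, UPF3A and XRN2, all lower. The CNOT7 probe set that passed there was the second one above, at −0.92, not the one that was higher after normalization.

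Different probe sets of a gene did not always give one sign. Of the 16 genes with several tested probe sets, 8 had differences of one sign and 8 of both signs. The genes with both signs were CNOT7, CNOT9, CSTF1, EXOSC1, PABPN1, PUM2, UPF3B and YTHDF2. A further 17 of the 85 probe sets were not tested, with normalized signals of 0.875 to 28.6, and 13 of the tested ones lay within 1.5-fold of the brightness filter on the scale of signal plus 16, where the added constant weighs most.

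Other genes of the same pathways were taken from lists of terminal nucleotidyltransferases, decay cofactors, further cleavage factors, masking and repression factors, and writers and readers of N6-methyladenosine. They comprised 97 probe sets of 56 genes, of which 69 of 47 genes were tested and 0 passed (lowest limma adjusted p 0.0614). At an unadjusted p of 0.05, 6 of the 69 were higher (8.7%, against 5.05% of all tested probe sets) and 4 lower (5.8%, against 5.81% of all), and the median was 0.03. The lowest p belonged to HNRNPD, which binds AU-rich elements and promotes decay. Its dimmer probe set read 372, 389 and 444 in the adult and 728, 710 and 608 in the prepubertal arrays. Its difference was 0.74 ± 0.14, a 1.67-fold higher value, and a second HNRNPD probe set gave 0.43 ± 0.13, also without overlap. The dimmer one passed without prepubertal replicate 1 (adjusted p 0.0452), among 195 of all tested probe sets that passed there. As deposited it was 0.47 with an adjusted p of 0.331.

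ZC3H13, a part of the complex that writes N6-methyladenosine, read 554, 392 and 475 in the adult and 384, 170 and 165 in the prepubertal arrays. Prepubertal replicate 1 was close to the adult values and prepubertal replicates 2 and 3 were far below. The difference was −1.03 ± 0.27, a 2.04-fold lower value, with an adjusted p of 0.168. Without prepubertal replicate 1 it was −1.40 with an adjusted p of 0.0036, in the same fit with 195 passing probe sets. EDC3, a decapping cofactor, differed by −0.51 ± 0.25 (adjusted p 0.486), and the cleavage factor RBBP6 by 0.56 ± 0.24 on a dim probe set but by −0.17 and −0.26 on brighter ones. PAPD7, a noncanonical poly(A) polymerase, differed by −0.20 ± 0.11, with 5012, 4253 and 3761 against 3856, 3806 and 3620.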

How the data were processed

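RNA of 3 adult and 3 prepubertal oocyte samples was measured on 1 array each. The deposited values are linear signal values, 1 per probe set and array; the submitters' processing notes name MAS5, with no version, and the scaling target is not given in the sources here. All columns matched a sample, with 0 left unmatched. Of 24123 probe sets, 124 controls were left out.

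The deposited signal was quantile-normalized over 23999 probe sets, 16 was added and log2 taken. Probe sets with a mean log2 value at or above the median were tested (12000) by limma 3.58.1 under R 4.3.3, as a linear model with trended empirical Bayes variances, 2-sided, with Benjamini-Hochberg adjustment over all of them and a threshold of 0.05. The same fit on the values as deposited stands beside it. All adjusted p-values and intervals are from these limma fits. The main model alone was run on simulated data with independent noise, which checked neither the intervals nor the other fits. The number of arrays limits the precision.

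Symbols came from the platform annotation, in which 10267 non-control probe sets are listed and 10069 have 1 symbol; the 85 chosen here all matched RefSeq by Entrez identifier. No coordinates or sequences are given.

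The naming rule took, per role, the tested probe sets with the smallest and next smallest unadjusted p, every one under 0.05, further probe sets of those genes, and CNOT7, PAN2, PABPC4, CPEB1, BTG4, YBX2, PARN and ZFP36L2 where measured. It let any other of the 48 genes be named with its level; which of those were given array by array (CNOT6L, CNOT1, PAN3, CNOT9, PABPC1, DDX6, PAPOLA and YBX1) was chosen after their values were seen. In each further pathway list the probe set with the smallest p was named. The genes and lists were chosen with earlier results of these data known. The alternatives were other scalings, constants, filters and variance models, array weights, a replicate block and leaving out each array. Leaving out arrays on the deposited values was added after seeing the data.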

Additional observations from a re-analysis of the deposited data

How the results depend on the processing

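The median of the tested decay and polyadenylation probe sets was −0.23 on the deposited signals. A replicate block cannot change a group difference in this balanced design, only its p-value. Leaving out each array moved it between −0.068 and −0.0028 after normalization and between −0.35 and −0.16 as deposited. None of these probe sets passed in the other planned fits, but 8 of 68 did on the deposited signals with a replicate block. All 8 were lower in prepubertal arrays, beside 918 of all 12000 tested probe sets that passed there, most of them also lower. The 8 were of CNOT6L, UPF3B, ELAVL1, PAN2, CNOT7 (its second probe set), UPF3A, PABPC4 and XRN2. That count is not read as a result about the genes as a group. Leaving out each array gave 0 to 5 of these probe sets. The labels do not say whether replicate numbers pair the arrays. After normalization, deviations of same-numbered arrays correlated at 0.08, 0.02 and 0.03, and those of other pairs at −0.06 to 0.04. In each group 2 of 3 arrays correlated best with their own number. Deposited trimmed means of replicates 1, 2 and 3 were 160, 121 and 141 (adult) and 131, 105 and 113 (prepubertal), the same order. Pairing was thus not settled. With that block 33 of all tested probe sets passed, and 918 on the deposited signals. Calls over all probe sets depended on the setting: 57 as deposited, 2 with a constant of 1, 28 with a constant of 64, 2 without a filter, 55 under the stricter brightness filter, 28 with robust variances, 84 with array weights, and 0 without an intensity trend (1173 at an unadjusted p of 0.05). Leaving out each array in turn gave 0 (without adult replicate 2, 930 at an unadjusted p of 0.05) to 617 (deposited signals without prepubertal replicate 1). Of the other pathway genes, 1 probe set passed under the stricter brightness filter, 2 with array weights, and 0 to 4 when an array was left out. On deposited signals with the block 10 of their 69 passed, beside 918 of all tested probe sets.

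On the deposited signals 18 of the 68 probe sets turned from higher to lower. Among the genes of the naming rule there, CNOT11 was −0.027, the brighter PABPN1 probe set −0.20, a UPF3B probe set (0.01 after normalization) −0.22 and the YBX3 probe set at 0.12 was −0.083. That UPF3B probe set was −0.036 with array weights. When each array was left out and the rest quantile-normalized, ranges crossed 0 for the dimmer PAN2 (−0.46 to 0.20), brighter PABPN1 (−0.050 to 0.22), dimmest CPEB4 (−0.31 to 0.17), UPF3B at −0.07 (−0.20 to 0.082) and at 0.01 (−0.12 to 0.16), and dimmer YTHDF2 (−0.10 to 0.32). They also did for ELAVL1 at −0.05 (−0.20 to 0.10) and at −0.25 (−0.54 to 0.14) and YBX3 at 0.12 (−0.16 to 0.32). The cause of these shifts was not tested. Signal near background limits the dim probe sets most.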

Other observations

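Some other pathway genes outside the naming rule were chosen after their values were seen. FMR1, which represses translation of bound messages, read 1341, 1237 and 1454 in the adult and 1149, 503 and 612 in the prepubertal arrays, a log2 difference of −0.91 with a limma adjusted p of 0.166. A dimmer FMR1 probe set gave −0.04. NANOS1, a partner of Pumilio proteins, read 432, 439 and 400 against 305, 296 and 354, a difference of −0.40 with an adjusted p of 0.332 and no overlap between the groups. FXR1, a relative of FMR1, was read at 0.56, −0.51, 0.24 and −0.03 by its 4 tested probe sets, all with overlapping groups.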
